A study of Mus musculus with 2 samples.

Results

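The perforin and granzyme loci were described by the Runx3 peaks that lay in 4 windows of the mouse genome (build mm9) set around Prf1, the Gzmb to Ctsg cluster, Gzma with Gzmk, and Gzmm. A peak was a member when its midpoint fell inside a window, and 45 of the 19647 deposited peaks (0.229%) did so. The peaks came from chromatin immunoprecipitation sequencing (ChIP-seq), in which fragments of chromatin bound by a protein are pulled down with an antibody and sequenced. The series holds 1 library made with a home-made polyclonal Runx3 antibody and 1 made with non-immune rabbit serum (NIS), both from splenic natural killer (NK) cells of wild-type ICR mice, whose age and sex the labels do not give. All mice had been injected with IL-15/Ra complexes, given 2 times at an interval of 2 days, so neither library comes from resting NK cells. Per the labels, the 40000000 NK cells were purified by negative selection and then sorted for NKp46, an NK cell receptor; whether animals were pooled is not stated.

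The list gives positions only, without scores, heights or read counts, and its depth is therefore unknown. There was no second library of either kind, and the NIS library was not analysed here. The windows were chosen by the positions of peaks in this same list, so all values below are descriptions without a test, and intervals on counts cover counting error only. A peak list holds no expression, so the identity of the cells could not be checked against marker genes.

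Perforin, encoded by Prf1, forms pores in the membrane of a target cell and so lets granzymes, a family of serine proteases, reach its cytosol. Cytotoxic lymphocytes store both in granules that they release at the contact with the target. Mouse NK cells at rest hold transcripts of perforin and granzyme B but little of the proteins, and IL-15 is known to raise both. Runx3 is a Runt-domain transcription factor of NK cells and CD8+ T cells; it binds DNA at the core letters TGTGGT or TGCGGT and is known to take part in the cytotoxic programme of CD8+ T cells.

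The stretches before the gene starts show where these letters stand near the member genes. They were taken from RefSeq on GRCm38.p6, another build than that of the peaks, so their positions cannot be set against the peaks, and whether a peak covers any of them is unknown. The sequences are shown for Prf1, Gzmb and Gzma, which encode the pore former and the best-known granzymes. Capitals mark TGTGGT or TGCGGT, or ACCACA or ACCGCA where the match is on the opposite strand. For Prf1 (chr10:61297586-61297750, plus strand) the 165 bases before the annotated gene are given, for Gzmb (chr14:56262335-56262584, minus strand) and Gzma (chr13:113100982-113101231, minus strand) the 250 bases before the start.
Prf1: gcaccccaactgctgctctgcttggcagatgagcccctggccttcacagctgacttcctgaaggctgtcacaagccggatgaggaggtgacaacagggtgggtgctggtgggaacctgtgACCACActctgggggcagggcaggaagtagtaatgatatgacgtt
Gzmb: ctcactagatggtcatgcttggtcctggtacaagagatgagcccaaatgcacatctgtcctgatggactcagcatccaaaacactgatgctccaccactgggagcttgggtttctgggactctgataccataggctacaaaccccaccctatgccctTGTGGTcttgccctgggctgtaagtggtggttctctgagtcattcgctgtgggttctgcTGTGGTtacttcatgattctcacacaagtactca
Gzma: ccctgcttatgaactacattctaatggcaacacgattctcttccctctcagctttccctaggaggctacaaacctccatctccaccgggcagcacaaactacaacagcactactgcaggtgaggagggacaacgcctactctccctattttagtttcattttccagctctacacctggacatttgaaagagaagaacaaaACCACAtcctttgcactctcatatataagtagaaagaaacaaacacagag
Prf1 held 1 match, 130 to 125 bases before the start that RefSeq gives for this promoter, Gzma held 1 at 50 to 45 bases, and Gzmb held 2, at 93 to 88 and 34 to 29 bases. That start of Prf1 lies inside the annotated gene, beyond the last base shown. The Prf1 distance is therefore not counted from the end of the printed stretch, unlike those of Gzma and Gzmb.

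At the edges of the rule, the Prf1 window (chr10:60720000-60830000) was the most crowded, with 20 peaks in 110 kb. That is 0.182 peaks per kb (95% Poisson interval 0.111 to 0.281), or 182 per Mb, against 8.76 per Mb over chromosome 10 as a whole. Peaks covered 12.3% of the bases of the window, against a mean of 0.587% in equal windows. All 20 peaks belonged to 1 of 2 chains, a chain being a run of peaks whose neighbouring midpoints lie at most 10 kb apart. Adamts14 and Pald1 are the protein-coding neighbours of Prf1 in the RefSeq order, and no peak was assigned to Prf1 or to either of them.

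The lower chain held 8 peaks in 20.6 kb (chr10:60723639-60744288), of which peaks covered 26.6%. It opened with a peak of 1168 bp (chr10:60723639-60724806), its widest. Peaks of 565 bp (chr10:60726251-60726815) and 517 bp (chr10:60730104-60730620) followed at gaps of 1444 and 3288 bp. The next 4 stood within 5 kb of each other and formed the tightest part of this chain. They measured 740 bp (chr10:60736263-60737002), 826 bp (chr10:60738085-60738910), 561 bp (chr10:60739692-60740252) and 679 bp (chr10:60740543-60741221). The chain closed with a peak of 439 bp (chr10:60743850-60744288), its narrowest.

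A gap of 15.3 kb without a peak separated it from the upper chain. Of the 1110 gaps on chromosome 10, 642 (57.8%) were at least as long. The upper chain held 12 peaks in 45.2 kb (chr10:60759553-60804766). Here 6 peaks stood close together at the lower end, beginning with one of 1284 bp (chr10:60759553-60760836). The others of this group measured 751 bp (chr10:60762535-60763285), 504 bp (chr10:60763758-60764261), 509 bp (chr10:60765992-60766500), 509 bp (chr10:60768876-60769384) and 421 bp (chr10:60771111-60771531), the last being the narrowest of all 45 members. Towards the upper end the peaks were spaced more widely. A pair of 661 and 525 bp (chr10:60780108-60780768 and chr10:60781121-60781645) was followed by the widest of all 45 members, 1398 bp at chr10:60789906-60791303. The last were a pair of 491 and 505 bp (chr10:60796479-60796969 and chr10:60797235-60797739) and a peak of 453 bp (chr10:60804314-60804766).

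The nearest peaks outside the window lay at chr10:60650610-60651196, 69.1 kb below its lower edge, and at chr10:60844158-60844997, 14.6 kb above its upper edge. The first and last members lay 4.22 and 25.5 kb inside the edges. The crowded stretch therefore ended inside the window on both sides.

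**Figure D1:**
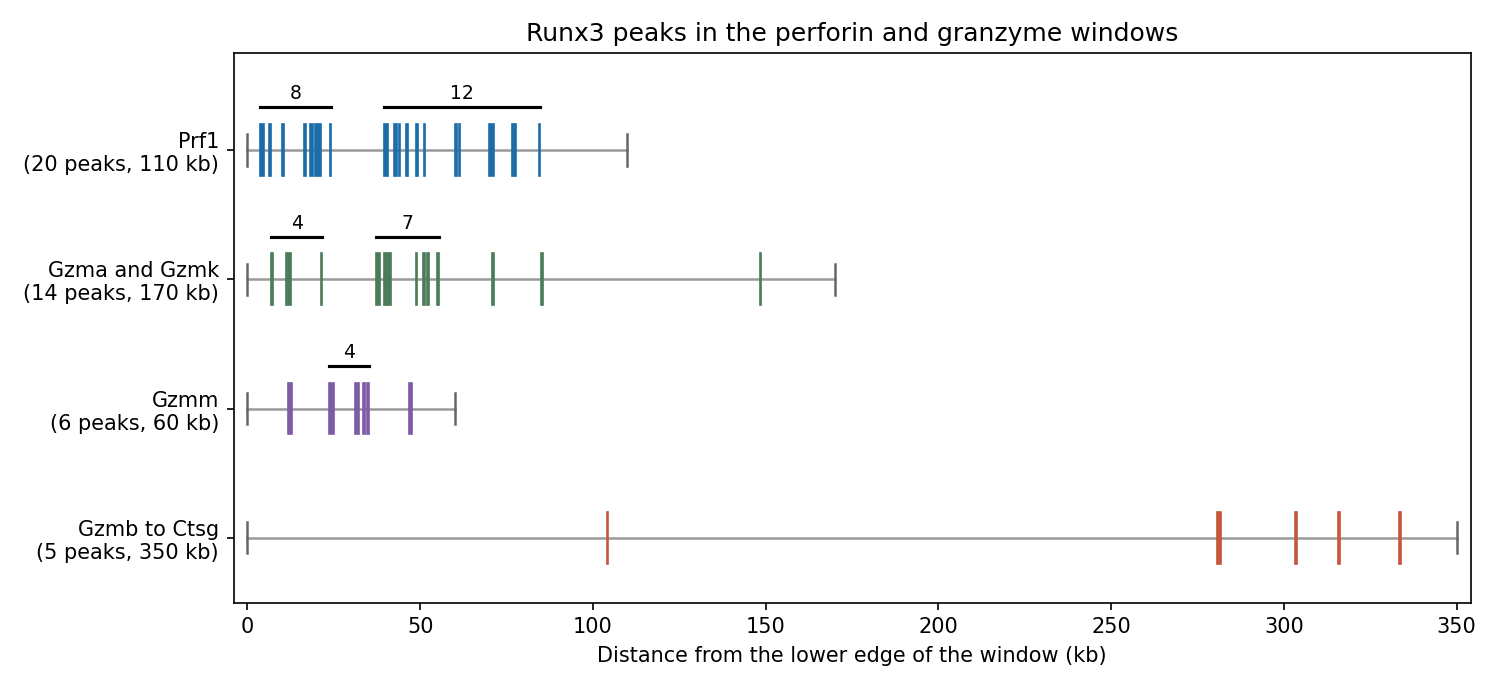
Position of the 45 Runx3 peaks in the 4 windows, by distance from the lower edge of each window in kb. Each coloured bar is a peak, drawn to scale with a thin outline, and black lines with a number mark chains of peaks at most 10 kb apart; the Prf1 window holds chains of 8 and 12 peaks and the Gzmb to Ctsg window none.

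The window around Gzma and Gzmk (chr13:113840000-114010000) held 14 peaks in 170 kb, or 0.0824 peaks per kb (95% Poisson interval 0.0450 to 0.138), and peaks covered 5.32% of it. Granzyme A cleaves proteins after arginine or lysine and is abundant in NK cells, and granzyme K, encoded by the adjoining gene, has a similar specificity. Of the 14 peaks, 11 lay in 2 chains of 4 and 7 in the lower part of the window, and 3 stood alone. Gpx8 and Esm1 flank the gene pair in the RefSeq order, and the peaks were not assigned to any of these genes.

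The chain of 7 spanned 18.2 kb (chr13:113877277-113895480), of which peaks covered 26.1%. It began with the widest peak of this window, 1061 bp (chr13:113877277-113878337). The narrowest of the window, 429 bp (chr13:113879583-113880011), and one of 968 bp (chr13:113880548-113881515) followed close by. The 4 remaining peaks of the chain were alike in width, at 524 bp (chr13:113888674-113889197), 544 bp (chr13:113890943-113891486), 593 bp (chr13:113891946-113892538) and 632 bp (chr13:113894849-113895480).

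The chain of 4 lay nearer the lower edge. Its peaks measured 517 bp (chr13:113846836-113847352), 513 bp (chr13:113851067-113851579), 987 bp (chr13:113851772-113852758) and 536 bp (chr13:113861197-113861732). It ran on beyond the window: with the peaks below the edge it held 7 peaks in 34.3 kb (chr13:113827475-113861732), the nearest of those outside being chr13:113837885-113838818, 1.65 kb from the edge and 934 bp wide. The edge of the rule thus cut this chain, and the count of 14 depends on where the edge was set. Lengthening the window by 20 kb at both ends gave 18 peaks and 0.0857 per kb.

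The 3 peaks that stood alone measured 596 bp (chr13:113910724-113911319), 587 bp (chr13:113924907-113925493) and 561 bp (chr13:113988215-113988775). The last of them was separated from the others by 62.7 kb without a peak. A gap at least as long occurred in 280 of the 793 gaps on chromosome 13 (35.3%). Just above the upper edge lay a peak of 695 bp (chr13:114017135-114017829), 7.48 kb outside, whereas the last member was 21.5 kb inside.

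The Gzmm window (chr10:79120000-79180000) held 6 peaks in 60 kb, or 0.100 peaks per kb (95% Poisson interval 0.0367 to 0.218), and peaks covered 9.08% of it. Granzyme M is a protease found mainly in NK cells and other innate lymphocytes and prefers to cleave after methionine or leucine. These values depended on the edges: with the window 20 kb longer at both ends there were 0.0600 peaks per kb and 5.45% was covered, and with it 20 kb shorter 0.200 per kb and 18.6%. In the longer windows the density was below the 0.0857 per kb of Gzma and Gzmk. The Prf1 window 20 kb shorter at both ends also held 0.200 peaks per kb, and 13.4% of it was covered. Which window was the most crowded therefore depended on the edges. Wide peaks made up 3 of the 6: 1122 bp (chr10:79131680-79132801), 1325 bp (chr10:79143755-79145079) and 1251 bp (chr10:79151119-79152369). The other 3 measured 489 bp (chr10:79153564-79154052), 646 bp (chr10:79154570-79155215) and 614 bp (chr10:79166897-79167510). A chain of 4 spanned 11.5 kb (chr10:79143755-79155215), and the first and last peaks stood alone. The nearest peaks outside were 102 kb below and 49.8 kb above the edges, at chr10:79017671-79018174 and chr10:79229306-79230237, whereas the outermost members lay 12.2 and 12.8 kb inside. Cdc34 and Bsg are the RefSeq neighbours of Gzmm, and no peak was assigned to any of the 3 genes.

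The Gzmb to Ctsg window (chr14:56600000-56950000) was the longest and the emptiest. It held 5 peaks in 350 kb, or 0.0143 peaks per kb (95% Poisson interval 0.00464 to 0.0333), none of them in a chain, and 0.946% of its bases were covered. Granzyme B cleaves after aspartate and starts apoptosis through caspases. In the RefSeq order Gzmb is followed by Gzmc, Gzmf, Gzmn, Gzmg, Gzmd, Gzme and Ctsg towards lower positions, and then by the mast cell protease genes Mcpt8 and Mcpt4; Ctsg encodes a protease of neutrophils.

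Of the 5 peaks, 4 lay at the upper end of this window. The widest measured 1053 bp (chr14:56880649-56881701). It was followed by peaks of 663 bp (chr14:56903060-56903722), 547 bp (chr14:56915549-56916095) and 533 bp (chr14:56933216-56933748), at gaps of 21.4, 11.8 and 17.1 kb. The remaining peak, the narrowest at 516 bp, stood far from them (chr14:56703944-56704459). Between it and the others 176 kb held no peak, and a gap at least as long occurred in 105 of the 686 gaps between neighbouring peaks on chromosome 14 (15.3%).

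The next peak above this window was 241 kb from its upper edge (chr14:57190305-57191164). The next below was nearer, 34.7 kb from the lower edge (chr14:56565008-56565497). The first and last members lay 104 and 16.5 kb inside the edges. The 4 upper peaks were thus an isolated loose group, with long empty stretches on both sides.

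Each window was set beside windows of the same length laid end to end from it along its own chromosome. On chromosome 10, 0 of 1151 windows of 110 kb (0%) held at least as many peaks as the Prf1 window; their mean was 0.946 and their highest count 16, so that the Prf1 window held 21.1 times the mean. For Gzma and Gzmk, 1 of 684 windows of chromosome 13 (0.146%) reached 14 peaks, and the mean was 1.13. For Gzmm, 27 of 2112 windows (1.28%) reached 6 peaks, and the mean was 0.522. For the Gzmb to Ctsg window, 59 of 326 windows of chromosome 14 (18.1%) reached 5 peaks, and the mean was 2.08. By this measure the first 3 windows stood at or near the upper end of their chromosomes, and that of Gzmb did not. Ranked by the share of covered bases in place of peak number, the picture was alike: 0 of 1151 windows (0%) reached that of Prf1, 2 of 684 (0.292%) that of Gzma and Gzmk, 10 of 2112 (0.473%) that of Gzmm and 58 of 326 (17.8%) that of Gzmb to Ctsg.

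**Figure D2:**
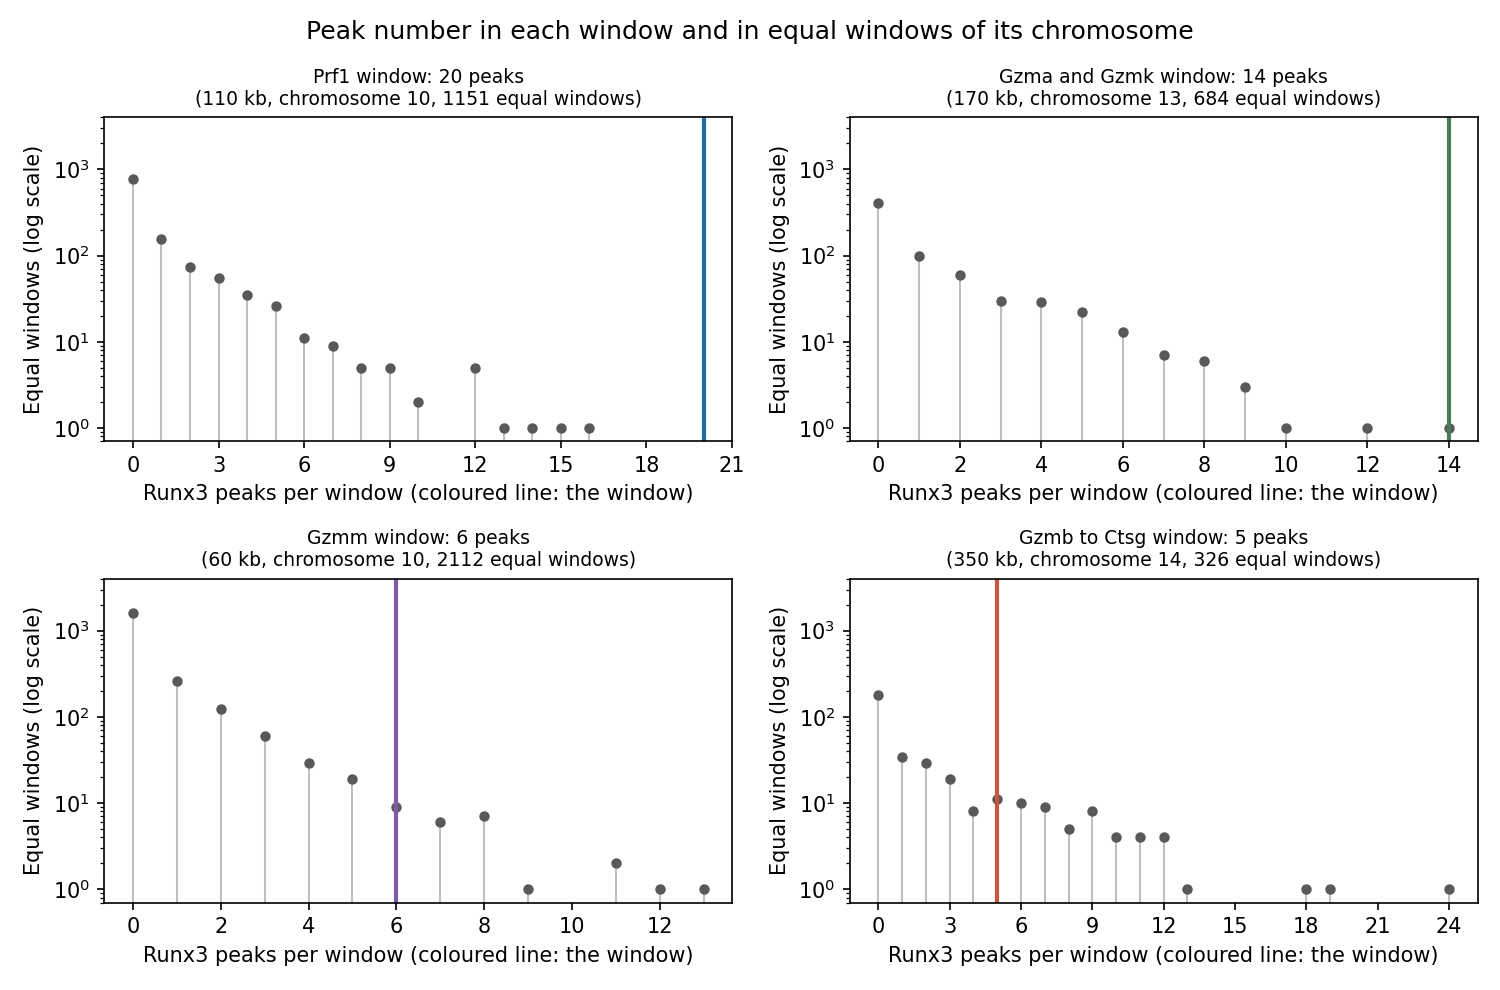
Number of Runx3 peaks (x axis) in windows of equal length laid end to end along the same chromosome, and how many windows held that number (y axis, log scale), with the perforin or granzyme window as a coloured line. The Prf1 line at 20 lies beyond all 1151 equal windows, whose highest count was 16, whereas the Gzmb to Ctsg line at 5 lies inside the distribution.

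Most windows laid end to end held no peak, from 54.3% of those of 350 kb on chromosome 14 to 75.5% of those of 60 kb on chromosome 10. Since the windows of the rule had been placed where peaks were known, windows that start at each other peak of the chromosome are the stricter comparison. Against these, 0 of 1088 (0%) reached the 20 peaks of the Prf1 window, and the highest count was 17. Over all chromosomes, 8 of 19624 such windows (0.0408%) did, and the highest count was 21. For Gzma and Gzmk the share was 6 of 774 on the chromosome (0.775%) and 821 of 19627 over all chromosomes (4.18%).

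For Gzmm the share was 168 of 1105 (15.2%) on the chromosome and 10.8% over all chromosomes. For the Gzmb to Ctsg window 410 of 663 (61.8%) held at least as many peaks, and their median was 6, above its own 5; over all chromosomes the share was 69.8%. Counts like those of Gzmm and the Gzmb cluster were thus frequent where peaks occurred, unlike that of Prf1. Windows that start at neighbouring peaks overlap, so these shares are not counts of separate places.

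Since the 4 windows differ in length, the densest 50 kb of each was also counted. It held 14 peaks in the Prf1 window, 11 in that of Gzma and Gzmk, 6 in that of Gzmm and 3 in the Gzmb to Ctsg window. Among stretches of 50 kb that start at another peak of the same chromosome, at least as many were found in 0 of 1091 (0%), 0 of 780 (0%), 129 of 1105 (11.7%) and 227 of 682 (33.3%). Each of these 4 stretches was picked as the highest of its window, and a longer window offers more places to pick from, whereas the other stretches were not picked. The shares therefore overstate how far a window stands apart, and give no order of the windows.

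Chains of at most 10 kb were set beside the same equal windows. The upper Prf1 chain of 12 peaks was matched in 1 of 1151 equal windows (0.0869%), and the Gzma chain of 7 in 0 of 684 (0%), whose longest held 6. A chain of 4 or more, as in the Gzmm window, occurred in 31 of 2112 (1.47%). The Gzmb to Ctsg window had no chain at this distance, and 149 of 326 equal windows (45.7%) held at least 1 peak. Fixed edges of equal windows can cut chains, whereas the windows of the rule had been placed where peaks were known. The lower chain of the Gzma and Gzmk window, followed past its edge, also held 7 peaks. The chain shares can therefore make chains look rarer than they are. Chains were not counted in windows that start at a peak. Chains depended on the distance allowed. With 20 kb the longest held 20 peaks in the Prf1 window, 13 in that of Gzma and Gzmk, 6 in that of Gzmm and 3 in the Gzmb to Ctsg window. With 5 kb they held 6, 4, 3 and 1. How often equal windows reach these sizes at 5 or 20 kb was not computed. Neighbouring members were a median of 2.72 kb apart in the Prf1 window and 4.23 kb in the Gzma and Gzmk window, against 21.9 kb over chromosome 10 and 29.3 kb over chromosome 13. Both windows held many peaks in a short length, which by itself brings neighbours closer. How much of the closer spacing goes with the peak counts was not tested.

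Closely spaced peaks may be single regions listed in parts. Gaps of up to 1000 bp occurred 5 times in the Prf1 window, 3 times in that of Gzma and Gzmk, 1 time in that of Gzmm and 0 times in the Gzmb to Ctsg window, the smallest being 192 bp. How often such gaps occur elsewhere in the list is not given here, so these counts have no comparison. After such gaps were joined throughout the list, 15, 11, 5 and 5 regions remained. The Prf1 window then still exceeded all 1151 equal windows in the number of regions. The longest chain fell to 9 regions in the Prf1 window, to 5 in that of Gzma and Gzmk and to 3 in that of Gzmm. Chains of joined regions were not compared with equal windows.

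Peak widths were near those of the chromosome in 3 of the 4 windows. The median was 543 bp in the Prf1 window (quartiles 505 to 743), against 607 bp for the other peaks of chromosome 10. It was 574 bp around Gzma and Gzmk, against 596.5 bp elsewhere on chromosome 13, and 547 bp in the Gzmb to Ctsg window, against 595.5 bp elsewhere on chromosome 14. The 95% interval of the median was 505 to 740 bp for Prf1 and 517 to 968 bp for Gzma and Gzmk. The 5 peaks of the Gzmb to Ctsg window ranged from 516 to 1053 bp. These spans included the value of the chromosome. They are wide and treat the peaks of 1 library as separate draws, so this cannot show that the widths are alike. After gaps of up to 1000 bp were joined, the difference for Prf1 turned from -64 to 102 bp, so its direction depended on how regions were divided.

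The Gzmm peaks were the widest, with a median of 884 bp against 606 bp elsewhere on chromosome 10. With 6 peaks, the interval of that median was the whole range of 489 to 1325 bp. The difference of 278 bp became 613 bp after gaps of up to 1000 bp were joined. Peaks over 1000 bp numbered 3 of 6 there (50.0%), 3 of 20 in the Prf1 window (15%), 1 of 14 around Gzma and Gzmk and 1 of 5 in the Gzmb to Ctsg window. Over all 4 windows they made up 8 of 45 (17.8%), against 10.4% of the whole list. The widest member, in the Prf1 window, ranked 29 among the 1111 peaks of chromosome 10, so no window held one of the very widest.

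**Figure D3:**
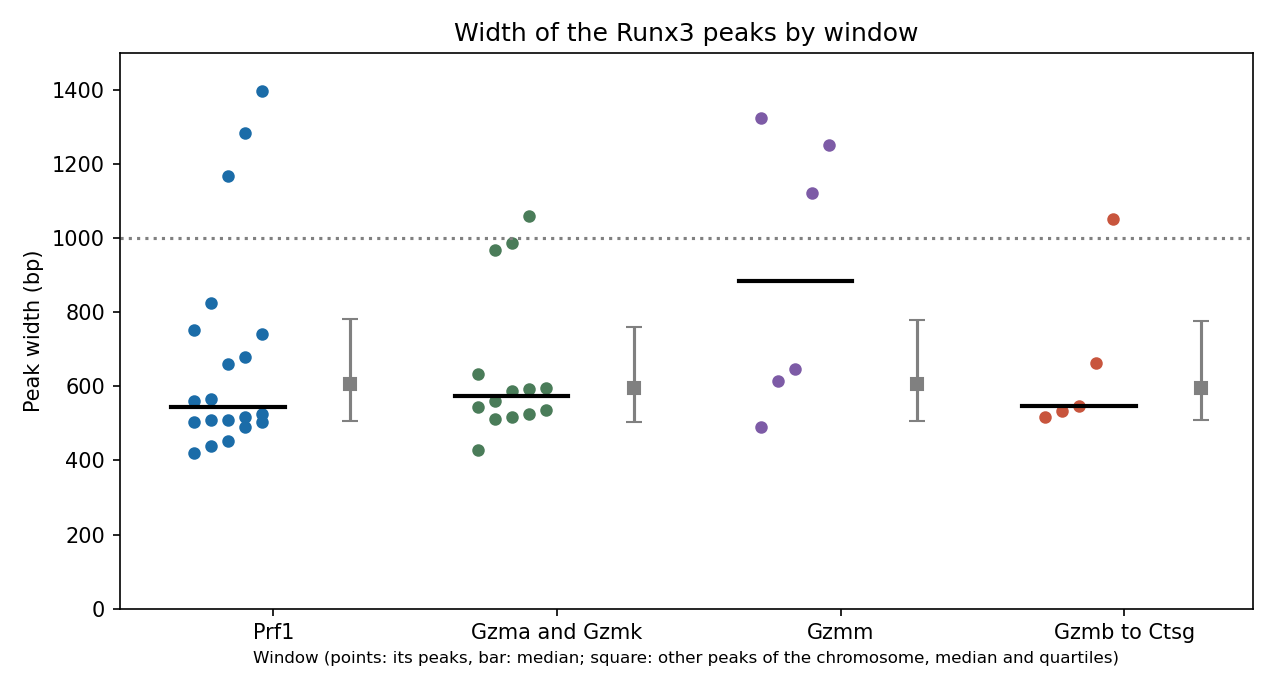
Width in bp (y axis) of each Runx3 peak in the 4 windows (points, with the median as a bar), beside the median and quartiles of the other peaks of the same chromosome (square and whiskers); the dotted line marks 1000 bp. The Gzmm points reach above the others in the median (884 bp), whereas the medians of the other 3 windows lie between 543 and 574 bp.

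The RUNX letters were also counted before the starts of all genes. RefSeq promoters were found for 6 of 6 member genes (Prf1, Gzma, Gzmb, Gzmc, Gzmk and Gzmm), with 2 starts for Gzmm. Of these 7 stretches of 250 bases, 6 (85.7%) held TGTGGT or TGCGGT on either strand, against 6107 of 32851 promoters of all genes (18.6%). Counted by gene it was 5 of 6 members, against 20.9% of all genes with a promoter. Gzmk was the member with no match in its window. The stretches of Gzmc and of the second Gzmm start, both with a match, lay inside the annotated genes. A match is a set of letters and not a bound site, and the members are few.

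Gzmb and Gzmc held 2 matches each, and 2 or more were found in 2.01% of all promoters. The match of the first Gzmm start stood 247 to 242 bases before it and that of the second, inside the annotated gene, 183 to 178 bases before it, the latter with the rarer letters. They are shown with their surroundings, as are the 2 matches of Gzmc.
Gzmm first start: ctgACCACAtcatgctgtgca
Gzmm second start: ctcttgggtgtgACCGCAtatgcagtccca
Gzmc upper match: caggcctccttaACCACAgcctccacatcc
Gzmc lower match: tcaggaggtcagTGTGGTaacagtgtcatt
The matches of Gzmc lay 174 to 169 and 108 to 103 bases before the start and faced in opposite directions. They too lay inside the annotated gene.

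The cluster genes Gzmd, Gzme, Gzmf and Gzmg carried the same arrangement, which is why the stretch with both matches is shown for each. These genes encode granzymes of the mouse that lie between Gzmb and Ctsg, and they fall in the window with the fewest peaks per kb.
Gzmd: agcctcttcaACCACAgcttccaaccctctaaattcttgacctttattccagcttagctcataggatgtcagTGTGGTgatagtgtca
Gzme: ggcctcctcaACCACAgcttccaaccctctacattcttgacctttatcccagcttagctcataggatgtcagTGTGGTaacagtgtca
Gzmf: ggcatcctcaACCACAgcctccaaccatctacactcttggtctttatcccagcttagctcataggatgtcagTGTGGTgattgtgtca
Gzmg: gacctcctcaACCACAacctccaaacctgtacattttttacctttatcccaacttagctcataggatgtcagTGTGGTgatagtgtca
The stretches lie on the minus strand of GRCm38.p6 at chr14:56132690-56132777, chr14:56120723-56120810, chr14:56211525-56211612 and chr14:56159692-56159779. In all 4 the first bases of the matches were 62 apart, and in Gzmc 66. Over the 250 bases before the start, the 5 genes from Gzmc to Gzmg were 71.5% to 94.8% identical in the 10 pairs, whereas the other 67 pairs among members and cluster genes had 44.7% to 54.5%. The shared matches of these 5 genes are therefore not 5 separate occurrences. Of the other cluster genes, Ctsg held 1 match and Gzmn 0. Among the mast cell protease genes beyond Ctsg, 3 of 4 with a promoter held a match (Mcpt1, Mcpt4 and Mcpt8, but not Mcpt9), against 20.9% of all genes with a promoter. The 30 bases around the match were identical in Mcpt1 and Mcpt4, so these are not separate occurrences either. The stretch of Mcpt8 lay inside its annotated gene.

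**Figure D4:**
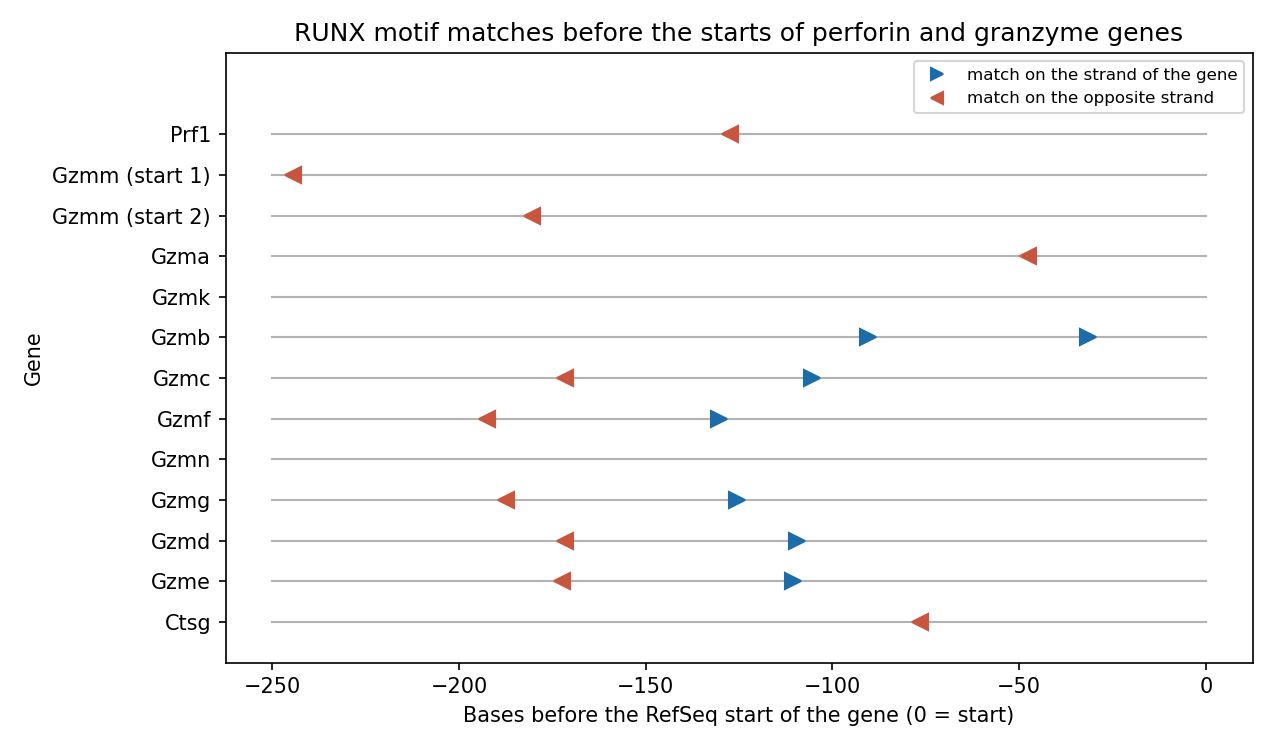
Matches to TGTGGT or TGCGGT by distance in bases before the RefSeq start (x axis) for the member genes and the other genes of the Gzmb to Ctsg cluster (y axis), with the direction of each triangle giving the strand. Gzmc, Gzmf, Gzmg, Gzmd and Gzme share an opposed pair of matches, Gzmb holds 2 on its own strand, and Gzmk and Gzmn hold none.

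Reads of 50 bp that fit more than 1 place cannot be assigned to one, and the likeness of the cluster genes bears on this. In the 300 bases around the start, 27 of the 251 runs of 50 bases in Gzmd also occurred in Gzmg (10.8%), 1 of 251 in Gzme also in Gzmf, and none in Prf1, Gzma, Gzmb, Gzmc, Gzmk or Gzmm occurred in the promoter of another gene. The bodies of the genes were not compared. The part of such shared runs in the empty stretch of the Gzmb to Ctsg window was not tested.

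Other genes of the cytotoxic granule were matched for comparison, 10 of a list of 12 having a RefSeq promoter. Of these, 4 (40.0%) held a match in any of their promoters, against 20.9% of all genes counted likewise. By promoter it was 4 of 12 (33.3%), against 18.6% of all promoters. The 4 were Nkg7, a granule membrane protein, Lamp1, a lysosomal membrane protein, Rab27a, which docks granules, and Srgn, the proteoglycan that holds granzymes. Srgn matched only before its second start, inside the annotated gene, and Rab27a only before its first. The other 6 were Fasl and Tnfsf10, ligands of death receptors, Ctsc, the protease that activates granzymes, Stx11 and Stxbp2, which act in granule fusion, and Serpinb9, an inhibitor of granzyme B. Ctsw and Unc13d complete the list. With the longer letters TGTGGTT or TGCGGTT, 3 of the 7 member promoters (42.9%) held a match, against 5.59% of all promoters.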

How the data were processed

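One ChIP-seq peak list of the Runx3 library was analysed. Per the labels' protocols, cells were fixed in 1% formaldehyde, DNA was sonicated to about 200 bp and ELAND aligned reads of 50 bp. Per the submitters' processing notes, CASAVA 1.8.2 and mm9 were used. For the peak caller, its threshold and the use of the NIS library, the sources used here give nothing. The name of the deposited list contains the words "to small", unexplained, so it may be a reduced list. The deposited starts count from 0 and are printed counted from 1.

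The members and gene lists were chosen with earlier results of these data known. The member genes were set with the windows and are Prf1, Gzma, Gzmb, Gzmc, Gzmk and Gzmm. Ctsg, though in the name of a window, was counted as a cluster gene. Every peak in a window is named. Windows were read as starting at the first and ending before the last position. Equal windows covered the span from the first to the last peak of a chromosome. Intervals are exact 95% Poisson intervals for counts and order-statistic intervals for medians (Python 3.11.15, numpy 2.4.6, scipy 1.17.1). Promoters of 250 bases before and 50 after each start came from RefSeq (GRCm38.p6), and were searched for TGTGGT and TGCGGT on both strands. These letters also lie inside the longer motif tried as an alternative. Identity came from global alignment (Biopython 1.88). No genome or annotation of mm9 was used here, so peaks were not searched for motifs or set against gene starts. Counting was tested on simulated lists. Alternatives were other peak sets, window edges, equal windows, chain distances and motif letters.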

Additional observations from a re-analysis of the deposited data

How the results depend on the processing

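Of 118 alternatives for 21 values, 98 stayed within the interval of the reported value (a counting interval, or for widths that of the median) and 20 moved out of it. These intervals are wide for few peaks: the Prf1 width difference turned from -64 to 102 bp within its own. Some of the 98 could not move. No window held a gap of up to 100 bp, so joining such gaps left its peaks unchanged. The count of 98 is therefore not a measure of stability. Keeping peaks at or above the median width lowered the count by construction. It gave 0.0727 peaks per kb and 6.82% covered for Prf1, 0.0235 and 2.15% for Gzma and Gzmk, and shares of equal windows with at least as many peaks of 0.521% (Prf1), 2.63% (Gzma and Gzmk) and 0.710% (Gzmm). Windows 20 kb longer at both ends gave 0% for Gzma and Gzmk and 3.24% for Gzmm, and windows 20 kb shorter gave 0.457% for Gzmm. Equal windows shifted by 0.5 of their length gave 0% for Gzma and Gzmk. Counting only equal windows with a peak gave 39.6% for Gzmb to Ctsg and 5.22% for Gzmm, because empty windows were dropped. Equal windows on all chromosomes gave 0.827% for Gzmm. Windows starting at a peak, chosen after the data were seen, gave 15.2% for Gzmm and 61.8% for Gzmb to Ctsg, and over all chromosomes 10.8%, 69.8% and, for Gzma and Gzmk, 4.18%. With chains of at most 5 kb the longest Prf1 chain held 6 peaks. Where no reason is given, the cause was not tested. RUNX letters in the peaks were not searched. No paired analysis was possible because all values come from a single Runx3 library. Depth is not recorded, and missed weak sites are beyond reach.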
